A study of Mus musculus with 30 samples.

Results

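Hes1, Atoh1, Dll1, Dll4, Notch1, Notch2, Notch3, Gfi1, Rbpj and Lfng are 10 genes of the Notch pathway and of secretory cell fate, and they were followed through small intestinal epithelium released in successive steps from mice given ICZ or its vehicle. They were chosen by name from the 54146 genes of the count table, and each name matched 1 gene. Female C57BL/6 mice (given as C57B6/J in the treatment notes), 8 to 10 weeks old, were moved from chow to a semi-purified AIN93G diet for 1 week. They were then gavaged with 10 µg ICZ in corn oil or with the vehicle, and the small intestine was taken 12 h later. ICZ is an indolocarbazole that binds the aryl hydrocarbon receptor (AHR), a ligand-activated transcription factor, and the diet was chosen to lack dietary AHR agonists. Sequential EDTA dissociation of the epithelium gave 5 fractions per mouse, F1 to F5, and each fraction went into a library of the 3′ ends of mRNA. There were 3 vehicle mice with 15 libraries and 3 ICZ mice with 14 libraries. For ICZ replicate 3, F1 was not analysed here. No gene was altered in these mice, and the fractions are cell mixtures, so fewer cells of a type and less RNA per cell cannot be told apart.

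Notch signalling passes between touching cells. A Delta ligand on one cell binds a Notch receptor on its neighbour, the receptor is cut, and its intracellular domain joins the DNA-binding protein RBPJ to switch on target genes such as Hes1. In the intestinal crypt HES1 represses Atoh1, so that cells with active Notch stay progenitors or become absorptive. Atoh1 encodes the transcription factor required for goblet, Paneth and enteroendocrine cells in the mouse. Cells with ATOH1 make Delta ligands and go on to express Gfi1.

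Hes1 and Notch2 rose from F1 towards F5 in vehicle mice and in ICZ mice, and Atoh1 fell in vehicle mice. At an adjusted p under 0.05 (edgeR) these were 3 of the 10 genes in vehicle mice, beside 34.0% of all genes tested. In ICZ mice they were 2 of the 10, beside 29.7%. Only the calls of Hes1 held under each of 16 alternatives, and those of Notch2 and Atoh1 were lost without F1, among others. Hes1 doubled or more in mean level between F1 and F5, from 44.7 to 93.6 CPM in vehicle mice and from 28.1 to 84.1 CPM in ICZ mice, and climbed in 6 of 6 mice. CPM is the read count of a gene scaled to library size, with sizes adjusted by TMM. By edgeR none of the 10 genes passed an adjusted p of 0.05 for ICZ against vehicle over F2 to F5 together, beside 0 of 15497 genes. Within single fractions 7 to 9 of the 10 had enough reads to test. None of these passed, beside 0 to 4 of all genes tested in a fraction. For the difference of slopes between the treatments 0 of the 10 passed, beside 0.0142% of all genes tested. At an unadjusted p under 0.05 it was also 0 of the 10, beside 698 of the 14067 genes tested.

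The 29 libraries held 4359673 to 7819837 gene reads, with a median of 6351137. The reads of a gene follow from 3′ ends and not from transcript length. Levels of single genes are compared between libraries. The 10 most abundant genes took 54.3% of the gene reads in F5 of ICZ replicate 1, against a median of 26.8% over libraries. Epithelial markers dominated: the summed level of 12 absorptive enterocyte genes was 14170 to 55759 CPM, that of 10 goblet genes 6845 to 22092 CPM, that of 10 endothelial genes 2.14 to 18.9 CPM and that of 10 fibroblast and pericyte genes 5.88 to 135 CPM. T cell genes were also present, at 96.6 to 876 CPM for 10 genes, and no gene of any of the 14 lists was at 0 in all libraries.

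Promoters are shown for genes whose level moved with fraction, Notch2 and Atoh1, and for the genes with a match to the RBPJ core, Lfng and Rbpj. Each holds 250 bases before and 50 after the start site from RefSeq, on GRCm38.p6, written 5′ to 3′ on the plus strand, with the RBPJ core TGGGAA or its reverse complement TTCCCA in capitals. RefSeq promoters were found for 9 of the 10 genes, 12 promoters in all, and the missing gene is Hes1.
Notch2 (chr3:98013288-98013587, plus strand): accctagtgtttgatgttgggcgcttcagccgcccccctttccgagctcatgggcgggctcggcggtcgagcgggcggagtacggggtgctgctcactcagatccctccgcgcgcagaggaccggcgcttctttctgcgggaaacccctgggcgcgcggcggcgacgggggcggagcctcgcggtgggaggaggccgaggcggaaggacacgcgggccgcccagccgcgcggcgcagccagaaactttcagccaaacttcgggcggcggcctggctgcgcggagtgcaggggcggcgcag
Atoh1 (chr6:64728875-64729174, plus strand): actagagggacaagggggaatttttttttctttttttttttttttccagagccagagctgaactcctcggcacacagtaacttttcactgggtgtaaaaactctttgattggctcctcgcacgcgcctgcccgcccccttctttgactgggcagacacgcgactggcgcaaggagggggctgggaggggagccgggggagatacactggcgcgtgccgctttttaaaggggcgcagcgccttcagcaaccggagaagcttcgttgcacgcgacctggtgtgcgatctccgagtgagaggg
Lfng (chr5:140607091-140607390, plus strand): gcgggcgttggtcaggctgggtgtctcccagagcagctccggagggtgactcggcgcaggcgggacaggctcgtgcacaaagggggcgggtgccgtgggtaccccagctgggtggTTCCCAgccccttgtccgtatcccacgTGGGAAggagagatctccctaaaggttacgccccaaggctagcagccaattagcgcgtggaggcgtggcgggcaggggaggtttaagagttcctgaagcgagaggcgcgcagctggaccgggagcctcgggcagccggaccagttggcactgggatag
Rbpj (chr5:53590096-53590395, plus strand): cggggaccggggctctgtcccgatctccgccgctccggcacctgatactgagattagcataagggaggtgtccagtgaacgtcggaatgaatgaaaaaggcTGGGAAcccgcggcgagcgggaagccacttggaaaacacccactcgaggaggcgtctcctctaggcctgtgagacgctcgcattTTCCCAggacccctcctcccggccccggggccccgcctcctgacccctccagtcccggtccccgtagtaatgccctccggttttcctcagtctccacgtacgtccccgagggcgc

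The Lfng promoter held 2 RBPJ cores, starting 135 bases before the start site on the minus strand and 108 bases before it on the plus strand, and the second extended to GTGGGAA. The Rbpj promoter also held 2, at 149 and 65 bases before the start site, and an overlapping second promoter of Rbpj held 1 of them. Neither Notch2 nor Atoh1 had a core in these windows. On both strands, TGGGAA occurred in 25.6% of 32851 RefSeq promoters and the overlapping longer form GTGGGAA in 6.38%. The AHR core GCGTG occurred 4 times in the Atoh1 promoter, 2 times in that of Lfng, once in that of Notch2 and not in that of Rbpj, against a share of 32.4% of all promoters with at least 1. The N box CACNAG, a letter pattern bound by HES proteins, occurred once each in the Atoh1, Notch2 and Lfng promoters and in 42.5% of all promoters.

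Notch2 was the receptor whose level moved with fraction. It encodes a Notch receptor of crypt epithelium and spans chr3:98013527-98150361 on the plus strand (GRCm38, GENCODE M21). In vehicle replicates 1, 2 and 3 it had 3.31, 2.54 and 1.77 CPM in F1 and 2.56, 3.25 and 5.35 CPM in F2. The F3 libraries held 4.59, 2.39 and 2.73 CPM. F4 and F5 were higher, with 5.33, 6.27 and 6.24 CPM and then 4.33, 5.75 and 5.96 CPM, and every F5 value lay above every F1 value. In ICZ mice the F1 libraries of replicates 1 and 2 had 0.657 and 2.19 CPM, from 3 and 14 reads. Replicates 1, 2 and 3 then had 2.14, 4.93 and 5.41 CPM in F2, 5.11, 4.46 and 6.97 in F3, 4.31, 7.31 and 5.38 in F4 and 3.15, 6.25 and 5.68 in F5. Both F1 values lay below every value of F3 to F5, and F5 of replicate 1 was the lowest of its fraction.

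The slope of Notch2 was 0.28 ± 0.09 log2 units per fraction step in vehicle mice (SE; edgeR, Benjamini-Hochberg adjusted p = 0.0123) and 0.26 ± 0.10 in ICZ mice (adjusted p = 0.0472). Fitted over the 4 steps from F1 to F5, these are rises of 2.18-fold and 2.07-fold. Single-mouse slopes pointed up in 3 of 3 vehicle mice and 2 of 3 ICZ mice. The call in vehicle mice was lost without vehicle replicate 2 (adjusted p = 0.0975), replicate 3 (0.0837) or F1 (0.0996). That in ICZ mice was lost without ICZ replicate 1 (0.179), replicate 2 (0.363) or F1 (0.576), where the ICZ slope was 0.09. Among other losses, the vehicle call went with F5 against F1, and the ICZ call with no filter, limma voom and F5 against F2. Over 16 alternatives the adjusted p of the ICZ slope reached 0.633. Other transcripts annotated inside Notch2 on the same strand had 184 and 73 reads against its 835, and such reads could belong to either feature.

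Notch1, the receptor required in crypt progenitors of the mouse together with Notch2, spans chr2:26457903-26516663 on the minus strand and gave only 89 reads in 29 libraries. It had 0 to 13 reads per library, and 0 in 4 libraries, where 3 reads would have been 0.428 to 0.589 CPM before TMM scaling. Its levels ran from 0 to 1.64 CPM with F1 and F5 overlapping in both treatments. Its slope was 0.09 ± 0.23 in vehicle mice (edgeR, Benjamini-Hochberg adjusted p = 0.802) and 0.30 ± 0.26 in ICZ mice (adjusted p = 0.398), and at this depth a change of the size seen in Notch2 was not detectable. An opposite-strand transcript within it had 55 reads, and the strand setting of the counting was not given in the sources used here.

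Notch3, a receptor best known from smooth muscle and pericytes, spans chr17:32120820-32166852 on the minus strand and had 274 reads. Its levels lay between 0.142 and 4.14 CPM, both ends in F5 of vehicle mice, in replicates 3 and 2. Slopes were -0.10 ± 0.13 in vehicle mice (edgeR, Benjamini-Hochberg adjusted p = 0.589) and -0.12 ± 0.15 in ICZ mice (adjusted p = 0.602), with 3 of 6 single-mouse slopes up and 3 down. In F5 of ICZ mice, where all 5 tested fibroblast and pericyte genes and both tested smooth muscle genes had rising slopes past the threshold, Notch3 was at 0.286, 2.13 and 1.1 CPM in replicates 1, 2 and 3. The sums of fibroblast and pericyte markers there were 34, 28.9 and 135 CPM in the same order, and their part in Notch3 was not tested.

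**Figure D1:**
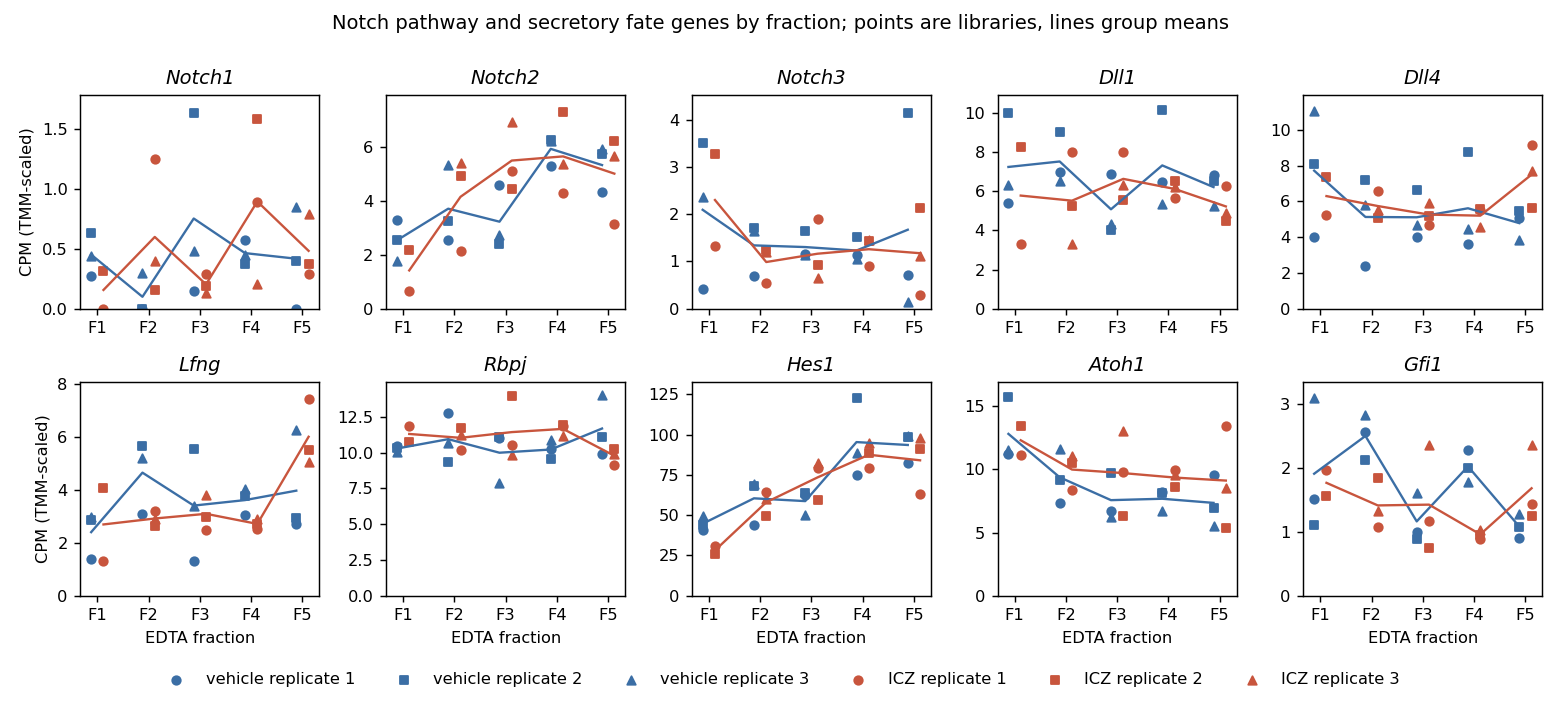
Level of each gene in CPM (TMM-scaled, linear axes that start at 0) in EDTA fractions F1 to F5, with 1 point per library, blue for vehicle and red for ICZ, a marker shape per replicate and lines through group means. Hes1 and Notch2 climb from F1, Atoh1 is highest in F1, and the colours overlap in most fractions.

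Of the ligands, neither Dll1 nor Dll4 passed the threshold over fractions. Dll1, a Delta ligand of secretory precursors, lies at chr17:15367354-15376872 on the minus strand. Its group means ran from 5.08 to 7.53 CPM in vehicle mice and from 5.23 to 6.64 CPM in ICZ mice. F5 over F1 was 0.858 in vehicle mice and 0.904 in ICZ mice (3 mice in F5, 2 in F1), and the libraries of F1 and F5 overlapped. The slopes were -0.05 ± 0.07 (edgeR, Benjamini-Hochberg adjusted p = 0.644) and -0.01 ± 0.08 (adjusted p = 0.939).

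Dll4, the partner ligand of Dll1 in the mouse crypt, lies at chr2:119325784-119335962 on the plus strand. In F1 of vehicle mice it had 4.0, 8.11 and 11.1 CPM in replicates 1, 2 and 3, and in F5 5.05, 5.48 and 3.83 CPM. Replicate 3 dropped, replicate 2 dropped less, and replicate 1 did not. In ICZ mice F1 had 5.26 and 7.34 CPM and F5 9.16, 5.63 and 7.72 CPM. The slope was -0.12 ± 0.07 in vehicle mice (edgeR, Benjamini-Hochberg adjusted p = 0.156) and 0.04 ± 0.07 in ICZ mice (adjusted p = 0.687). Without vehicle replicate 1 the vehicle slope was -0.23 and passed the threshold (adjusted p = 0.0206). Opposite-strand transcripts overlap both ligand genes, with 396 reads against 1179 for Dll1 and 698 against 1092 for Dll4, and without a stated strand setting these reads cannot be separated with certainty.

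Lfng and Rbpj act on the receptor and behind it. Lfng, the glycosyltransferase that modifies Notch receptors and favours their response to Delta ligands, lies at chr5:140607320-140615545 on the plus strand. In vehicle mice it had 1.38, 2.86 and 2.95 CPM in F1 and 2.70, 2.94 and 6.24 CPM in F5. In ICZ mice it had 1.31 and 4.06 CPM in F1 and 7.44, 5.50 and 5.04 CPM in F5. The ICZ values of F5 lay above both F1 values and above all 9 values of F2 to F4, which ran from 2.48 to 3.81 CPM, whereas the vehicle fractions overlapped. The slope was 0.09 ± 0.09 in vehicle mice (edgeR, Benjamini-Hochberg adjusted p = 0.467) and 0.25 ± 0.10 in ICZ mice (adjusted p = 0.0528), just outside the threshold. It was inside without F1 (0.0442) or without vehicle replicate 2 (0.0481), and without F5 the ICZ slope was -0.03 (0.916). The fibroblast and pericyte sum was highest in the same fraction of ICZ mice. It was 34.0, 28.9 and 135 CPM in F5 of ICZ replicates 1, 2 and 3, against 12.0 to 16.0 CPM in F5 of vehicle mice. Without F5 of ICZ replicate 3, left out after seeing the data, the ICZ slope of Lfng was 0.24 (0.097). The part of these markers in Lfng was not tested. The difference between the treatments' slopes was 0.15 ± 0.13 (adjusted p = 0.984).

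Rbpj, the DNA-binding partner of the cut receptor, lies at chr5:53466152-53657362 on the plus strand and was the steadiest of the 10. Its levels ranged from 7.87 to 14 CPM over all libraries, a narrower span relative to its median of 10.7 CPM than any other member had. The slopes were 0.03 ± 0.04 in vehicle mice (edgeR, Benjamini-Hochberg adjusted p = 0.596) and -0.03 ± 0.04 in ICZ mice (adjusted p = 0.668).

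**Figure D2:**
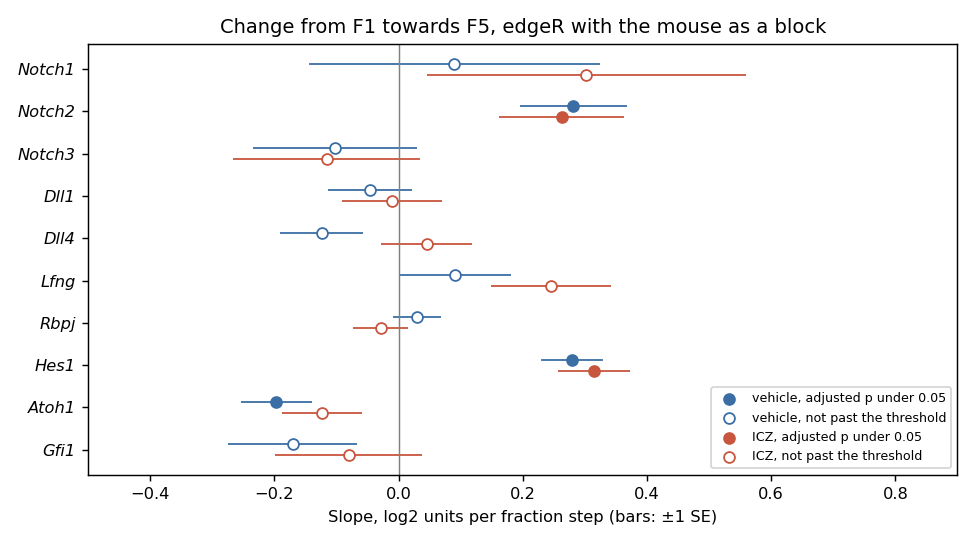
Slope over fraction number in log2 units per step for the 10 genes, blue for vehicle and red for ICZ, with bars of ±1 SE from edgeR with the mouse as a block. Filled points passed an adjusted p of 0.05: Hes1 and Notch2 in both treatments and Atoh1 in vehicle mice.

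Hes1, the transcriptional repressor that answers Notch, lies at chr16:30064384-30067796 on the plus strand and had 13278 reads, the most of the 10. Vehicle replicates 1, 2 and 3 had 40.6, 44.0 and 49.4 CPM in F1 and 44.2, 68.1 and 69.1 CPM in F2. They had 62.4, 63.9 and 49.9 CPM in F3 and 74.9, 123 and 88.6 CPM in F4. F5 held 82.6, 98.8 and 99.4 CPM, so that all 3 mice were above every vehicle library of F1 to F3. In ICZ mice F1 had 30.7 and 25.6 CPM, the 2 lowest values of the series. Replicates 1, 2 and 3 followed with 64.6, 49.5 and 60.1 CPM in F2, 79.0, 59.3 and 82.1 in F3, 79.4, 88.5 and 94.8 in F4 and 63.2, 90.8 and 98.2 in F5. Replicate 1 fell back in F5, and replicates 2 and 3 were highest there.

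F5 held 2.09 times the mean Hes1 level of F1 in vehicle mice and 2.99 times in ICZ mice, without overlap. The ICZ means are of 3 mice in F5 and 2 in F1, so that ratio is not matched by mouse. The slope was 0.28 ± 0.05 log2 units per step in vehicle mice (edgeR, Benjamini-Hochberg adjusted p = 0.000114) and 0.31 ± 0.06 in ICZ mice (adjusted p = 0.000175). It passed the threshold under each of 16 alternatives in both treatments, where the largest adjusted p was 0.0104 in vehicle mice and 0.048 in ICZ mice. The difference of the slopes was 0.04 ± 0.08 (adjusted p = 0.991).

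Atoh1, the gene that commits cells to secretory fates, lies at chr6:64729125-64731245 on the plus strand and is a single short gene. In vehicle replicates 1, 2 and 3 it had 11.2, 15.7 and 11.5 CPM in F1 and 7.34, 9.19 and 11.6 CPM in F2. F3 had 6.74, 9.69 and 6.26 CPM, F4 8.18, 8.15 and 6.69 CPM and F5 9.56, 6.95 and 5.53 CPM. F1 was above F3, F4 and F5 in all 3 mice, and F5 of replicate 1 was above its own F2 to F4. In ICZ mice F1 had 11.2 and 13.4 CPM and F2 8.38, 10.5 and 11.1 CPM. F3 had 9.78, 6.32 and 13 CPM, F4 9.96, 8.58 and 9.52 CPM and F5 13.4, 5.38 and 8.51 CPM. F5 of replicate 1, the library with the high share of its 10 most abundant genes, was at the level of F1. The F1 values lay above every F2 and F4 value and overlapped with those of F3 and F5. That library also had the highest goblet sum of F5, at 15904 CPM, and the highest enteroendocrine and tuft sums of the series, at 1648 and 130 CPM, and their part in its Atoh1 level was not tested.

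Mean Atoh1 in F1 was 1.74 times that in F5 in vehicle mice, with no overlap, and 1.35 times in ICZ mice (2 mice in F1, 3 in F5). The slope was -0.20 ± 0.06 in vehicle mice (edgeR, Benjamini-Hochberg adjusted p = 0.00813) and -0.12 ± 0.06 in ICZ mice (adjusted p = 0.145), with 3 of 3 and 2 of 3 mice pointing down. The vehicle call was lost without vehicle replicate 2 (0.101), replicate 3 (0.148) or F1 (0.339), and also with F5 against F1. The ICZ slope passed the threshold without ICZ replicate 1, at -0.25 (0.0194), and without that mouse's F5 library alone, at -0.19 (0.0226). The difference of the slopes was 0.07 ± 0.09 (adjusted p = 0.984).

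Gfi1, a zinc-finger repressor that acts after ATOH1 to separate goblet and Paneth cells from enteroendocrine cells in the mouse, lies at chr5:107716657-107726036 on the minus strand. It had 4 to 21 reads per library and 0.743 to 3.10 CPM. Means in vehicle mice were 1.91 CPM in F1, 2.50 in F2, 1.16 in F3, 2.02 in F4 and 1.08 in F5, without a steady course. The slopes were -0.17 ± 0.10 (edgeR, Benjamini-Hochberg adjusted p = 0.208) and -0.08 ± 0.12 in ICZ mice (adjusted p = 0.653), with 5 of 6 mice pointing down.

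In all, 3 of the 10 genes passed the threshold in vehicle mice, 2 up and 1 down, beside 34.0% of the 14067 genes tested, and 2 up in ICZ mice, beside 29.7%. These shares are near the background of all genes: 18.0% of genes were called higher and 16.0% lower in vehicle mice, 14.5% and 15.1% in ICZ mice. The median slope of the 10 was -0.01 in vehicle mice and 0.02 in ICZ mice, where that of all genes was 0.01 in both. Values of F5 and F1 did not overlap for Hes1, Atoh1 and Notch2 in vehicle mice, where 36.3% of genes of at least 30 reads had none, and for Hes1, Notch2, Rbpj and Lfng in ICZ mice, where 47.2% had none.

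The ratio of the opposing pair shows their courses together. In vehicle replicates 1 to 3 there were 3.57 ± 0.75 Hes1 reads per Atoh1 read in F1 (SD, n = 3), 6.47 ± 0.822 in F2 and 7.94 ± 1.33 in F3. F4 had 12.5 ± 3.01 and F5 13.6 ± 4.70. In ICZ mice the means were 2.33 (n = 2), 5.95, 7.92, 9.41 and 11 from F1 to F5. All 6 mice had a higher ratio in their last fraction than in their first, and F5 of ICZ replicate 1 stood lowest in its fraction, at 4.70 against 16.9 and 11.5. The ratio needs no library size, so that scaling has no part in it.

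**Figure D3:**
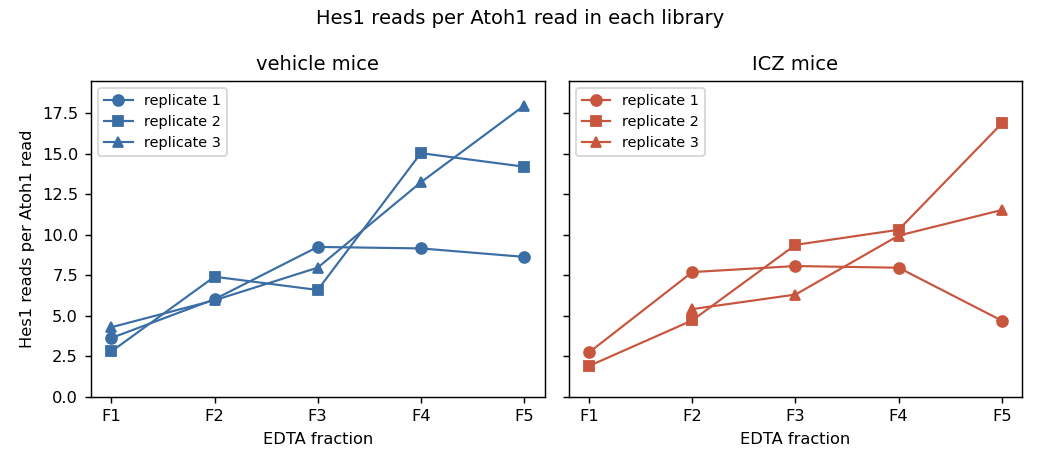
Hes1 reads per Atoh1 read (linear axis from 0) by EDTA fraction, with 1 line per mouse, vehicle on the left and ICZ on the right. The ratio starts between 1.91 and 4.29 in F1 and ends between 4.70 and 18.0 in F5.

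Other cell markers moved over the same fractions. Of 10 stem cell genes 9 rose in vehicle mice and 7 in ICZ mice, of 12 proliferation genes 11 and 10 rose, and of 12 absorptive enterocyte genes 10 fell in each (edgeR, Benjamini-Hochberg adjusted p under 0.05). Paneth genes rose for 9 of 9 in vehicle mice and 1 of 9 in ICZ mice. For the difference of slopes 0 of the 9 passed, beside 0.0142% of all genes. The Paneth sum in ICZ mice went from 3370 CPM in F1 (n = 2) to 13639 CPM in F5 (n = 3). Of 10 goblet genes 5 fell in each and 1 rose in vehicle mice. Of 12 enteroendocrine genes 2 rose and 3 fell in vehicle mice, and 3 rose and 3 fell in ICZ mice. The summed goblet level went from 18333 CPM in F1 to 8132 in F5 in vehicle mice, and the stem cell sum from 197 to 463 CPM. Over the same fractions the Paneth sum went from 5019 to 11341 CPM and the enteroendocrine sum from 1048 to 896 CPM. The tuft sum went from 55.9 to 38.9 CPM, the proliferation sum from 467 to 1052 CPM and the absorptive enterocyte sum from 46749 to 22695 CPM. Immediate early and heat shock genes, known to answer stress, all rose, 15 of 15, in vehicle mice, from a summed 1100 to 4553 CPM, and 12 of 15 in ICZ mice, from 1139 to 2697 CPM. The part of these cell mixtures and of the stress genes in the slopes of Hes1, Notch2 and Atoh1 was not tested.

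Genes whose log2 CPM ran closest to that of each key gene over the 29 libraries were taken from 9341 genes with a mean of at least 5 CPM. The libraries share mice, fractions and depth, so these are descriptions. For Hes1 they were Trim59 (r = 0.947), Tmed9 (0.896), Cebpz (0.894), Pabpc1 (0.887) and Rpl32 (0.886). For Atoh1 they were a transcript with only a clone name (0.801), Fcgbp (0.788), Bcas1 (0.770), S100a6 (0.763) and Zg16 (0.757), of which Fcgbp and Zg16 encode goblet cell products. For Dll1 the closest was Wdr11 (0.797), followed by Txn-ps1, Zcchc14, Tap2 and Man2a1 (0.744 to 0.755). For Notch1, with few reads, the closest reached 0.605, for Pygo2, and Prr14l, Spata2, Trp53rka and Meaf6 lay between 0.548 and 0.588. Among the 10 genes themselves the closest pair was Hes1 and Notch2 (r = 0.782). Hes1 and Atoh1 had r = -0.456, and Atoh1 and Dll4 had r = 0.480.

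Beyond the 10, 44 other Notch pathway genes were listed, of which 34 had enough reads to test. Dll3, Mfng, Hes5, Hes7, Hey1, Hey2, Nrarp, Aph1c, Neurl1a and Dlk1 did not. In vehicle mice 5 rose and 8 fell, beside 34.0% of all genes called, and in ICZ mice 3 rose and 4 fell, beside 29.7%, with 4 genes called in both. The median slope was -0.02 in each, beside 0.01 for all genes. Olfm4, a crypt gene driven by Notch, rose at 0.37 ± 0.09 in vehicle mice (edgeR, Benjamini-Hochberg adjusted p = 0.00396) and 0.28 ± 0.11 in ICZ mice (adjusted p = 0.0447). Its vehicle call was lost without vehicle replicate 3 (0.0871) or F1 (0.066). Its ICZ call held in 8 of 16 alternatives: without F1 the slope was 0.096 (0.508), and the call was also lost without ICZ replicate 2 (0.502) or 3 (0.068), vehicle replicate 1 (0.0516) or 3 (0.0591) or F5 of ICZ replicate 3 (0.0533), with no filter (0.108) and with F5 against F2 (0.705). Its mean went from 154 ± 29.3 CPM in F1 to 419 ± 152 in F5 of vehicle mice (SD, n = 3). Poglut1, which adds glucose to Notch receptors, rose at 0.20 in vehicle mice, and Psen2, a catalytic subunit of the secretase that cuts them, at 0.12. The ligand Jag1 (0.11) and the ubiquitin ligase Mib1 (0.10) that lets ligands be taken up also rose, and they held in 8 and 5 of 16 alternatives, both being lost without vehicle replicate 1 or 2, among others. Psen2 held in 11 of 16 and was lost without vehicle replicate 2 (0.0586) or 3 (0.367) or F1 (0.332), among others. Poglut1 held in 14 of 16, with adjusted p up to 0.182, and was lost without vehicle replicate 3 (0.143), among others.

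Among the genes that fell, Furin, the protease that cleaves the Notch precursor, fell by 0.21 per step in vehicle mice (edgeR, Benjamini-Hochberg adjusted p = 9.68e-06) and by 0.20 in ICZ mice (adjusted p = 3.29e-05), and its slope was down in 6 of 6 mice. Its ICZ call was lost without F1, at -0.10 (0.0557), and with F5 against F2 (0.207). Its mean was 142 ± 10.7 CPM in F1 and 77.6 ± 16.1 CPM in F5 of vehicle mice (SD, n = 3). Dtx3l, of the Deltex ubiquitin ligase family, fell by 0.17 in both, and Neurl1b, a ubiquitin ligase acting on ligands, fell by 0.24 in vehicle mice and by 0.34 in ICZ mice. The vehicle call of Neurl1b was lost without F5, at -0.11 (0.116), and the ICZ call of Dtx3l with F5 against F2 (0.0823). Itch (-0.13) and Adam17 (-0.13) were called in vehicle mice, and Rfng (-0.15), a relative of Lfng, in ICZ mice. Itch was lost without vehicle replicate 3 (0.114), Adam17 without replicate 1 (0.0564) or F5 (0.0503) and Rfng without ICZ replicate 1 (0.182) or F5 (0.108), among others. Itch, Adam17 and Rfng held in 14, 13 and 13 of 16 alternatives, with adjusted p up to 0.120, 0.118 and 0.205. In ICZ mice the coactivator Maml3 (0.19) and Numbl (0.77) were called as rising, where the vehicle slopes were 0.08 and -0.16. The difference between treatments passed for neither (edgeR, Benjamini-Hochberg adjusted p = 0.984 and 0.722). The ICZ F1 libraries of Numbl both had 0 reads, and its ICZ F5 mean was 1.45 ± 1.5 CPM (SD, n = 3). Without ICZ replicate 1 neither the ICZ call of Maml3 nor that of Numbl held (adjusted p = 0.061 and 0.125). Numbl was also lost without ICZ replicate 2 (0.101), and Maml3 without F1 (0.0796) or F5 (0.0949), among others. Maml3 held in 12 of 16 alternatives, with adjusted p up to 0.233.

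Of 20 other genes of secretory and crypt fate, 17 could be tested, and Neurog3, Gfi1b and Pou2f3 had too few reads. In vehicle mice 4 rose and 0 fell, where 34.0% of all genes were called and 18.0% rose, and in ICZ mice 5 rose and 0 fell, where 29.7% were called and 14.5% rose, with 3 called in both. The median slope was 0.08 in each. Sox4, a factor of tuft and enteroendocrine precursors in the mouse, rose at 0.45 ± 0.06 in vehicle mice (edgeR, Benjamini-Hochberg adjusted p = 2.16e-06) and 0.27 ± 0.07 in ICZ mice (adjusted p = 0.00219). Its mean went from 4.52 ± 0.70 to 14.9 ± 7.45 CPM in vehicle mice. Sox9, a crypt base and Paneth cell factor, rose at 0.33 ± 0.06 and 0.27 ± 0.06, and Ascl2, a stem cell factor, at 0.36 ± 0.08 and 0.31 ± 0.09. Foxa1, active in secretory cells, rose in vehicle mice at 0.28, and not without vehicle replicate 2 (0.0728), among others. Its vehicle call held in 14 of 16 alternatives, with adjusted p up to 0.0960. In ICZ mice Pax6, a factor of enteroendocrine cells, rose at 0.48 ± 0.11, where the vehicle slope was 0.08. The difference between treatments did not pass for Pax6 (adjusted p = 0.878). Without ICZ replicate 2 the ICZ calls of Sox4 (0.173), Sox9 (0.103) and Ascl2 (0.388) were lost, as they were with F5 against F2 (0.175, 0.0764 and 0.299). Without F1 both calls of Ascl2 were lost, at slopes of 0.21 in vehicle mice (0.0604) and 0.16 in ICZ mice (0.133), and its ICZ call was also lost without the replicate block (0.0611).

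**Figure D4:**
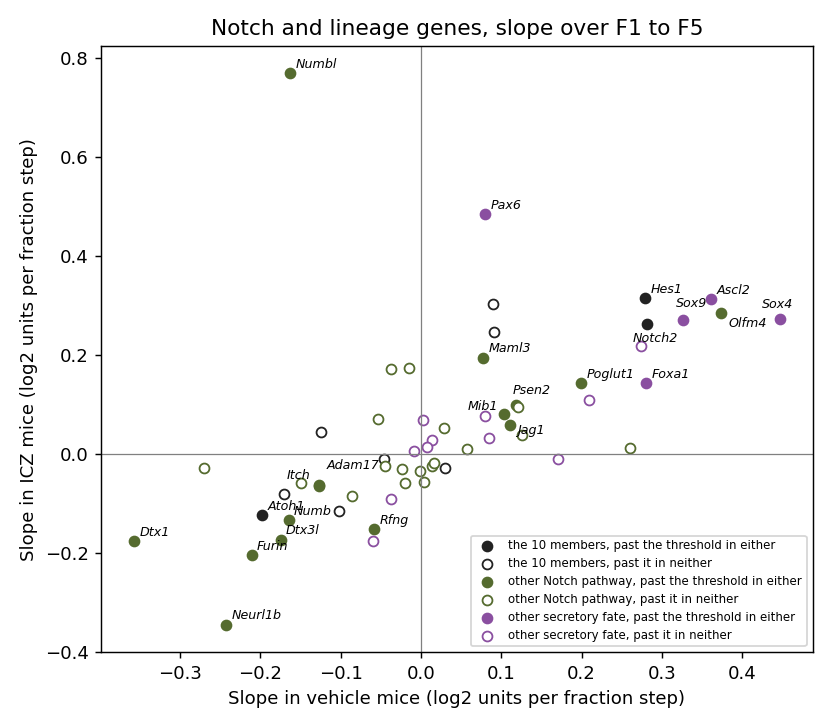
Slope over fractions in log2 units per step, vehicle mice on the horizontal axis and ICZ mice on the vertical axis, for the 10 genes (black), other Notch pathway genes (green) and other secretory fate genes (purple) that could be tested and are reported here. Filled points passed an adjusted p of 0.05 in at least 1 treatment and are named; Hes1, Notch2, Olfm4, Sox4, Sox9 and Ascl2 lie at the upper right, and Furin, Dtx3l and Neurl1b at the lower left.

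The comparison of ICZ with vehicle asked whether these genes differed 12 h after gavage of this AHR ligand. With F2 to F5 added per mouse, Hes1 had 66.9, 90.2 and 79.0 CPM in vehicle replicates 1, 2 and 3 and 74.1, 75.0 and 84.4 CPM in ICZ mice. Atoh1 had 8.05, 8.63 and 7.66 CPM in vehicle mice and 10.2, 7.76 and 11.1 CPM in ICZ mice. The ICZ values of Hes1 lay inside the vehicle range, and ICZ replicates 1 and 3 had more Atoh1 than any vehicle mouse while replicate 2 did not. The log2 fold change was -0.02 ± 0.12 for Hes1 (edgeR, Benjamini-Hochberg adjusted p = 0.989) and 0.25 ± 0.16 for Atoh1 (adjusted p = 0.879). As a ratio of scaled reads, ICZ over vehicle was 0.978 for Hes1 (exact 95% interval 0.943 to 1.01) and 1.18 for Atoh1 (1.06 to 1.32). These intervals cover counting error alone and not the spread between mice.

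Among the receptors the summed ratio was 1.15 for Notch2, 1.19 for Notch1 and 0.836 for Notch3. It was 0.883 for Dll1 and 1.1 for Dll4, 0.903 for Lfng, 1.03 for Rbpj and 0.838 for Gfi1. None of the 10 was free of overlap between the treatments, where 11.4% of genes of at least 30 reads were. By edgeR's quasi-likelihood test 0 of the 10 passed the threshold, and 0 did at an unadjusted p under 0.05, beside 0.0% of the 15497 genes tested (886 at an unadjusted p under 0.05). DESeq2 and limma voom also gave 0 of the 10, with 13 and 1 of all genes. The replicate number as a block, which pairs the mice here, moved the count over all genes from 0 to 231 and left 0 of the 10.

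**Figure D5:**
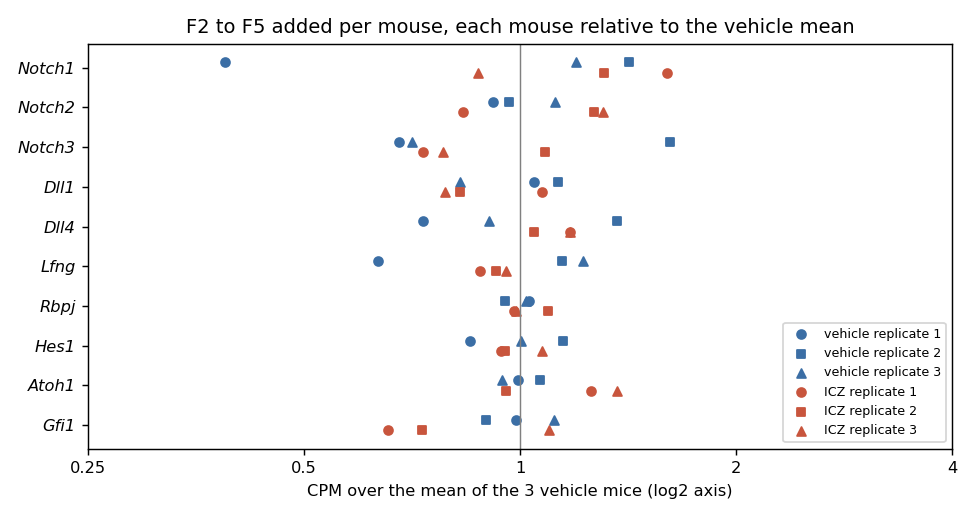
CPM over F2 to F5 added per mouse, divided by the mean of the 3 vehicle mice (log2 axis), with blue points for vehicle mice and red points for ICZ mice. The colours overlap for each of the 10 genes.

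Within single fractions edgeR called 0 of 9 tested members in F1, 0 of 8 in F2, 0 of 7 in F3, 0 of 8 in F4 and 0 of 7 in F5. Over all genes it called 0.0324% in F1, 0.0165% in F2, 0.00815% in F3, 0.0% in F4 and 0.0% in F5. At an unadjusted p under 0.05 there was 1 member each in F1 (Hes1), F3 (Notch2) and F4 (Gfi1) and 0 in F2 and F5. Over all genes this held for 542 of 12335 in F1, 1455 of 12115 in F2 and 1122 of 12268 in F3. In F4 it held for 349 of 12092 and in F5 for 342 of 12244. DESeq2, limma voom and the replicate block gave 0 members in each fraction as well, while the block moved the count over all genes from 4 to 45 in F1, 2 to 221 in F2, 1 to 23 in F3, 0 to 5 in F4 and 0 to 8 in F5.

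The lowest unadjusted p belonged to Hes1 in F1. The ICZ libraries had 30.7 and 25.6 CPM and the vehicle libraries 40.6, 44.0 and 49.4 CPM. Both ICZ values lay below all vehicle values, with a ratio of scaled reads of 0.622 (exact 95% interval 0.544 to 0.709). The log2 fold change was -0.67 ± 0.17 (edgeR, Benjamini-Hochberg adjusted p = 0.529; 0.0772 to 1.0 over 10 alternatives). In the same libraries the stem cell sum was 156 to 159 CPM with ICZ and 170 to 216 CPM with vehicle. The goblet sum was 20957 to 22092 CPM against 16095 to 20034 CPM and the enteroendocrine sum 1240 to 1400 CPM against 1025 to 1086 CPM, none of the 3 overlapping. All other marker sums overlapped in F1. For example, the proliferation sum was 353 to 435 CPM with ICZ and 342 to 655 CPM with vehicle. The Paneth sum was 2739 to 4001 CPM against 3121 to 6074 CPM. The part of these cell mixtures in the Hes1 value was not tested. In F2 to F5 Hes1 overlapped between the treatments.

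Notch2 in F3 had 5.11, 4.46 and 6.97 CPM in ICZ mice against 4.59, 2.39 and 2.73 CPM in vehicle mice, with an overlap of 1 vehicle library. The log2 fold change was 0.77 ± 0.32 (edgeR, Benjamini-Hochberg adjusted p = 0.515). Gfi1 in F4 had 0.892, 0.954 and 1.03 CPM in ICZ mice, from 5 or 6 reads each, against 2.28, 2.01 and 1.78 CPM in vehicle mice. The groups did not overlap, with a ratio of 0.475 (0.253 to 0.857) and a log2 fold change of -1.06 ± 0.42 (edgeR, Benjamini-Hochberg adjusted p = 0.999). Gfi1 was also without overlap in F2, with a ratio of 0.571, but not in F3 or F5, where ICZ replicate 3 held the highest value.

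In F1, Hes1 and Rbpj did not overlap between treatments, 2 of the 10, where 20.0% of genes of at least 30 reads did not. In F2 it was Gfi1 alone, beside 16.7% of genes, and in F3 none, beside 14.7%. In F4 there were 4, Atoh1 and Rbpj higher and Gfi1 and Lfng lower with ICZ, beside 8.86% of genes. In F5 it was Dll4 alone, at 9.16, 5.63 and 7.72 CPM with ICZ and 5.05, 5.48 and 3.83 CPM with vehicle, beside 8.22%. Its log2 fold change was 0.65 ± 0.32 (edgeR, Benjamini-Hochberg adjusted p = 1.0). These 8 of 50 pairs of gene and fraction were not the same genes from one fraction to the next, apart from Gfi1 in F2 and F4 and Rbpj in F1 and F4.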

How the data were processed

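Whole-number read counts per gene were deposited by the authors as 1 table and were not normalized. BWA 0.7.17-r1188, SAMtools 1.10, HTSeq 0.11.2 and FastQC 0.11.2 and the build GRCm38.p6 (mm10) are named in the submitters' processing notes; annotation release and strand setting were not given in the sources used here. The 5 summary lines that name no gene were left out, and gene reads were 51.6% to 61.6% of all counted reads. The 10 genes and the gene lists were chosen with earlier results of these data known.

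Slopes over fraction number came from 1 edgeR 4.0.16 fit (R 4.3.3) over the 29 libraries, blocked by mouse. ICZ was compared with vehicle on F2 to F5 added per mouse, which all 6 mice have, and within each fraction, with no block. All used filterByExpr, TMM, the robust quasi-likelihood F test and Benjamini-Hochberg adjustment over all tested genes at 0.05. SE was derived by dividing the fold change (log2, unsigned) by the root of F. Log2 CPM used a prior count of 2. Alternatives were RLE size factors, no filter, DESeq2 1.42.0, limma 3.58.1 voom, the block, and leaving out mice, fractions or libraries. Scripts were tested on simulated counts.

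Replicates were numbered by the labels. The same number in vehicle and ICZ mice went with deviations correlated at 0.381, 0.247 and 0.472 over genes, and other numbers at -0.424 to -0.0248. Deviations from the mean of a treatment cancel out over its mice, so the negative values are no separate support for pairing. The block takes the numbers to pair the mice and served as an alternative only. This pairing comes from the data, since the labels name no shared litter or day. Chi-square per degree of freedom over 28 replicate pairs was 4.74 to 96.1, so none is a duplicate. Reads are not known to be independent molecules, so intervals and floors cover counting error only.

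All 10 genes are named in each comparison. Other list genes named are up to 6 per comparison and direction of smallest p past the threshold, and examples given levels were chosen among these after their values were seen. Some list genes are counted but not reported by name here. Likeness was the Pearson r for 4 genes and 5 matches each. One sample labelled undetermined entered no comparison.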

Additional observations from a re-analysis of the deposited data

How the results depend on the processing

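The alternatives were other size factors, no filter, DESeq2, limma voom, the mouse or replicate block, and leaving out mice, fractions or single libraries; leaving out F5 of ICZ replicate 3 was chosen after seeing the data. The slopes of Hes1 kept their direction and call in both treatments under each of 16 alternatives. The number of the 10 genes called in vehicle mice, 3, was 1 without F1 or with F5 against F1, and 1 to 4 with 1 mouse left out. In ICZ mice, 2 became 1 with no filter, with limma voom and with F5 against F2, and 1 to 3 with 1 mouse left out. For ICZ against vehicle it was 0 throughout. The replicate block, which pairs the mice, changed no call of the 10 and left the count over all genes at 231 in the summed comparison, 45 in F1, 221 in F2, 23 in F3, 5 in F4 and 8 in F5. Over all alternatives the count over all genes ran from 1623 to 5207 for the vehicle slope (4779 as reported), 1162 to 4498 for the ICZ slope (4171), 0 to 7 for their difference (2), 0 to 231 in the sum (0), 1 to 57 in F1 (4), 0 to 351 in F2 (2), 0 to 498 in F3 (1), 0 to 26 in F4 (0) and 0 to 37 in F5 (0). Without the mouse block in the slope fit, 4193 genes were called in vehicle mice and 4152 in ICZ mice.

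Values that changed sign belonged to results past no threshold, and the cause was not tested. With 1 mouse left out, vehicle slopes ran from -0.23 to 0.0081 for Dll4, from -0.030 to 0.11 for Notch1, from -0.28 to 0.10 for Notch3 and from -0.011 to 0.059 for Rbpj, and ICZ slopes from -0.061 to 0.10 for Dll1 and from -0.0032 to 0.12 for Dll4. The slope differences then ran from -0.057 to 0.090 for Hes1, from -0.047 to 0.19 for Atoh1 and from -0.077 to 0.089 for Notch2. The summed ICZ differences ran from -0.13 to 0.083 for Hes1, from -0.015 to 0.45 for Dll4, from -0.066 to 0.63 for Notch1, from -0.44 to 0.31 for Notch3, from -0.035 to 0.050 for Rbpj and from -0.37 to 0.039 for Lfng. Without F1 the vehicle slopes were 0.016 for Notch3 and -0.067 for Lfng, the ICZ slopes 0.10 for Notch3 and 0.025 for Gfi1, and the slope difference of Hes1 was -0.060. Without F5 the vehicle slope of Rbpj was -0.021, the ICZ slopes were 0.071 for Dll1, -0.096 for Dll4, 0.025 for Rbpj and -0.026 for Lfng, and the slope difference of Notch2 was 0.11. Without the F5 library of ICZ replicate 1, the ICZ slope of Dll4 was -0.011 and the slope difference of Notch2 was 0.019, and without F5 of every mouse the summed difference of Hes1 was 0.010. Without F5 of ICZ replicate 3 the slope difference of Notch2 was 0.044. Dll1 in ICZ mice was 0.0024 with limma voom and 0.015 for F5 against F2.

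With 3 mice a group the smallest p of an exact permutation test is 0.1. In F1, leaving out an ICZ mouse left 1 sample, assumed to vary like the others. Notch1, Notch3 and Gfi1 had few reads, and were left out by the filter in some fractions.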

Other observations

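The library whose label names neither treatment nor fraction had 7484796 gene reads. Scaled to library size without TMM it held 65.1 CPM of Hes1, 8.55 of Atoh1, 4.68 of Notch2, 4.94 of Dll4 and 5.48 of Dll1. Each of the 10 genes was below the highest vehicle library there.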
